A study of Mus musculus with 3 samples.

Results

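The levels of 10 receptor genes in cells of the mouse duodenum are described here: Pdcd1, Ctla4, Lag3, Tigit, Havcr2, Cd160, Cd96, Tnfrsf9, Icos and Tnfrsf4, which encode inhibitory and costimulatory receptors of T cells. They were chosen by name, as receptors of T cells, out of the 32285 genes in the count matrices. Each symbol matched 1 gene in the files. Single-cell RNA sequencing was done on immune cells from the duodenum of C57B6/J mice, male per the series title, at day 30 after recombinant mouse alpha-synuclein preformed fibrils (PFF) or saline had been injected into the gut wall. There was 1 PFF library, PFF 1 of batch 1, and there were 2 saline libraries, saline 1 of batch 1 and saline 2 of batch 2. Neither the age of the mice nor how many went into each library is stated. Cells were freed with Accumax, and a CD45-sorted part was mixed with a part enriched on CD11b beads, so the shares of cell types follow these enrichments.

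T cells need a second signal beside their antigen receptor, and the receptors encoded by these genes either add to that signal or restrain it. Cd96, Tigit, Pdcd1, Ctla4, Lag3, Havcr2 and Cd160 are known mainly as inhibitory receptors, whereas Tnfrsf9 (4-1BB), Icos and Tnfrsf4 (OX40) are costimulatory receptors that come up on activated cells. The epithelium of the small intestine holds many T cells that stay there for long, most of them gamma-delta T cells or CD8 T cells whose CD8 is an alpha-alpha dimer, and regulatory T cells of the underlying tissue are known for high CTLA-4 and ICOS. The protein of Lag3 has also been reported to bind alpha-synuclein fibrils.

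All 10 members are protein-coding genes on GRCm38 in GENCODE M21. Ctla4 (chr1:60887000-60915832) and Icos (chr1:60977927-61000320) lie near each other on the plus strand, Cd96 (chr16:46035657-46120251) and Tigit (chr16:43648867-43664146) on the minus strand of another chromosome, and Lag3 is at chr6:124904361-124911705 on the minus strand. The other members are Pdcd1 (chr1:94038305-94052553, minus), Havcr2 (chr11:46454935-46481255, plus), Cd160 (chr3:96798763-96829351, minus), Tnfrsf9 (chr4:150914562-150946102, plus) and Tnfrsf4 (chr4:156013843-156016612, plus).

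Promoter letters of 4 members are shown because their genes stand at opposite ends of the levels below: Cd96 and Cd160 were high in the intraepithelial type classes, and Ctla4 and Tnfrsf4 were highest in Foxp3 cells. The sequences are the 250 bases before each annotated start in RefSeq on GRCm38.p6, 5′ to 3′ on the strand of the gene. Promoters were found for 8 of the 10 members, and Lag3 and Icos were not among them. Capitals mark 5 motifs found on either strand, TGTGGT for RUNX factors, GGAAAA for NFAT factors, TATAAA for a TATA box, CAGCTG for an E-box and TCACAC for T-box factors.
Cd96, chr16:46120249-46120498, minus strand: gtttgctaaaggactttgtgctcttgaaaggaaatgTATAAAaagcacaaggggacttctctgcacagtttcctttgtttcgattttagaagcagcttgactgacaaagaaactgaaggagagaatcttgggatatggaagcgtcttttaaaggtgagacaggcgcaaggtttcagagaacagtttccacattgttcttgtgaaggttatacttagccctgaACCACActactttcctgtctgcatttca
Cd160, first start, chr3:96829352-96829601, minus strand: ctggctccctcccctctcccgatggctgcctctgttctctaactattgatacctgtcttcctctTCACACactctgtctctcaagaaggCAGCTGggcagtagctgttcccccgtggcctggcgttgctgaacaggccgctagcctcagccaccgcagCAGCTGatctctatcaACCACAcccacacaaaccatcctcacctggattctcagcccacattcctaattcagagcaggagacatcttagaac
Cd160, second start, chr3:96814522-96814771, minus strand: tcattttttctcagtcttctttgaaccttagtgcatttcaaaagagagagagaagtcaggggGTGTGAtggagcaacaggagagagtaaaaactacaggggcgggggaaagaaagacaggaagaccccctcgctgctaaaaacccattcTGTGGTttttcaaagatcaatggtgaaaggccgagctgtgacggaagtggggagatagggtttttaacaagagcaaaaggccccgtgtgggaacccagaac
Ctla4, chr1:60908775-60909024, plus strand: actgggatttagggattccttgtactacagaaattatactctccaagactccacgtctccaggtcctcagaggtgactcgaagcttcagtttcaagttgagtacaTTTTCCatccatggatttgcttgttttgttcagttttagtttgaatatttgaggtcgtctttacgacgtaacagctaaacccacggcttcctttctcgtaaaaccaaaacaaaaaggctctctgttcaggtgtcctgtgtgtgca
Tnfrsf4, chr4:156013445-156013694, plus strand: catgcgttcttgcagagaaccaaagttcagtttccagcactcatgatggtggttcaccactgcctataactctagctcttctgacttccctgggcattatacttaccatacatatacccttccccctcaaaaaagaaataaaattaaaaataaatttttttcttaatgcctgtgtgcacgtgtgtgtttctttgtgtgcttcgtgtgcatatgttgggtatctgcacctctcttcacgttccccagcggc
The RUNX letters were in the Cd96 window and in both Cd160 windows, and the T-box letters were in both Cd160 windows. The Ctla4 window held the NFAT letters, and the Tnfrsf4 window held none of the 5 motifs. Among the windows that are not printed, the RUNX letters were also in those of Tigit and Havcr2, and the NFAT letters in those of Tigit and of the first start of Tnfrsf9. Among 32851 mouse promoter windows of this length, 14.05% held the RUNX letters, 12.29% the T-box letters, 20.43% the NFAT letters, 12.37% the TATA box letters and 13% the E-box letters. These matches describe letters and do not show binding.

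Levels are given as CPM, the UMIs of a gene scaled to a fixed total of all UMIs of a class of cells in a library, each UMI standing for 1 captured transcript end, so no division by gene length was made. After filtering, 11060 cells of PFF 1, 5221 of saline 1 and 4182 of saline 2 remained, of which 9105, 4842 and 3136 were T cells with at least 2 UMIs of Cd3d, Cd3e and Cd3g together. The libraries differed in depth and in the share of damaged cells: the median kept cell of PFF 1 had 8849 UMIs, that of saline 1 3217 and that of saline 2 10027.5, and 20.1%, 3.04% and 22.7% of the deposited cells had over 15% mitochondrial UMIs. Wells with 1509, 3648 and 8732 cells are held by both saline files with identical counts in every cell, so they were counted once, kept out of the main tests and given as values of their own. PFF 1 shared 119 barcode sequences with saline 2 and 19 with saline 1, and no cell had the same counts in both libraries. Cells were put into 14 classes by marker UMIs that include none of the 10 members. Gamma-delta T cells had more Trdc than Trac, CD8 alpha-beta T cells had Cd8b1, and Cd8a-only alpha-beta T cells had Cd8a and a T cell receptor alpha or beta constant gene without Cd8b1, the pattern known of CD8 alpha-alpha cells. Conventional CD4 T cells had Cd4 without Foxp3, regulatory T cells had Foxp3, cycling T cells had cell cycle UMIs, and T cells that met none of these were left as other T cells. Single UMIs decide several of these gates, so the names are those of the gates. In PFF 1, Trdc stood at 969 CPM in the gamma-delta class against 99.0 CPM in the Cd8a-only class, Cd8b1 at 450 CPM in the CD8 alpha-beta class, and Siglech, a marker of plasmacytoid dendritic cells, at 0.495 CPM in the gamma-delta class.

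Cd96, Cd160, Lag3 and Tnfrsf9 were abundant in the intraepithelial type classes, Ctla4, Icos, Tnfrsf4 and Pdcd1 were scarce there and higher in CD4 and Foxp3 cells, and Havcr2 was scarce in all T cell classes and high in conventional dendritic cells. Over all wells, with the shared wells counted once, the Cd8a-only class had 754 CPM of Cd96, 258 CPM of Cd160, 189 CPM of Lag3 and 130 CPM of Tnfrsf9, and gamma-delta T cells had 721, 256, 154 and 112 CPM of the same genes. Tigit was lower in both classes, at 25.6 CPM in Cd8a-only and 22.0 CPM in gamma-delta cells. Havcr2, Ctla4, Tnfrsf4, Pdcd1 and Icos each stood under 6 CPM in both. In regulatory T cells, of which there were 20, Ctla4 stood at 679 CPM, Icos at 671 CPM, Tnfrsf4 at 242 CPM and Tnfrsf9 at 203 CPM. Among the members, therefore, the most abundant inhibitory receptor of gamma-delta cells was Cd96 and that of Foxp3 cells was Ctla4.

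**Figure D1:**
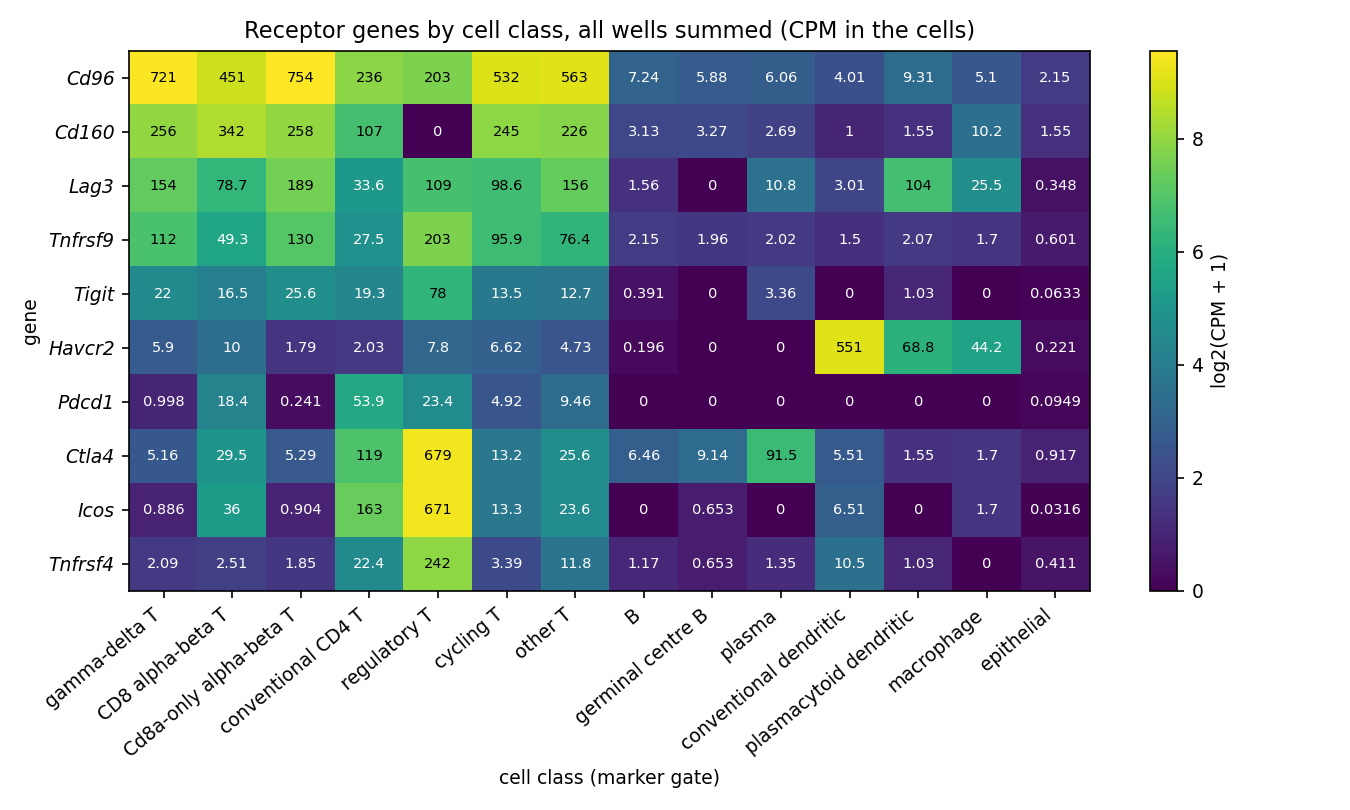
Level of each receptor gene (rows) in each cell class (columns), all wells together with the shared saline wells counted once; colour follows log2(CPM + 1) and the printed number is the CPM. Cd96 has 721 CPM in gamma-delta T cells, Ctla4 679 CPM in regulatory T cells, and Havcr2 551 CPM in conventional dendritic cells.

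Cd96, a receptor for the nectin-like protein Pvr (CD155), was the member with the most UMIs in T cells. In gamma-delta T cells it stood at 726 CPM in PFF 1, 770 CPM in saline 1 and 675 CPM in saline 2. The PFF library lay between the saline libraries. After every cell was thinned to 1500 UMIs, which left out 24, 37 and 27 shallower gamma-delta cells, 64.4% of gamma-delta cells of PFF 1 had a Cd96 UMI, against 66.4% in saline 1 and 60.3% in saline 2; without thinning the shares were 98.1%, 86.6% and 96.0%. Epithelial cells, which should lack the gene, had thinned shares of 0.405% for PFF 1, 2.94% for saline 1 and 1.12% for saline 2, beside unthinned shares of 6.30%, 5.71% and 4.62%. Their median depths were 3292, 15934 and 10158 UMIs, against 9090, 3192.5 and 10021 UMIs in gamma-delta cells. Over all wells Cd96 fell off by class in the order Cd8a-only 754, gamma-delta 721, other T 563, cycling 532, CD8 alpha-beta 451, conventional CD4 236 and regulatory T 203 CPM, and it was at or under 9.31 CPM in every class that was not T. Its well-to-well ranges in the Cd8a-only class, 692 to 811 CPM, and in gamma-delta cells, 620 to 770 CPM, overlapped.

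Cd160, a glycolipid-anchored or transmembrane receptor for HVEM (Tnfrsf14), was the only member whose CD8 alpha-beta level topped all other classes. In CD8 alpha-beta T cells it had 389 CPM in PFF 1, 415 CPM in saline 1 and 237 CPM in saline 2, and in gamma-delta T cells 273, 213 and 264 CPM. Saline 2 was the one library of the 3 in which the CD8 alpha-beta level did not exceed that of gamma-delta cells. No Cd160 UMI was found in the 20 regulatory T cells, which held 128144 UMIs in all and would show 23.4 CPM with 3 UMIs. Cd160 lies over Pdzk1, which is on the other strand.

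Lag3, which resembles CD4 and binds MHC class II, had 198 CPM in the Cd8a-only cells of PFF 1, 261 CPM in saline 1 and 177 CPM in saline 2. In gamma-delta T cells it had 147 CPM in PFF 1, 206 CPM in saline 1 and 168 CPM in saline 2, and the wells held by both saline files had 225, 161 and 129 CPM. Saline 1, the shallowest of the 3 libraries per cell, had the highest Lag3 in both classes. In cells thinned to 1500 UMIs the order was kept, with a Lag3 UMI in 19.8% of gamma-delta cells of PFF 1, 25.1% of saline 1 and 20.9% of saline 2; without thinning the shares were 63.4%, 44.2% and 71.3%. The thinned share in epithelial cells was 0.405% in PFF 1 and 0 in both saline libraries. Outside T cells Lag3 was also found in plasmacytoid dendritic cells, at 99.5 CPM in 46 cells of PFF 1, 152 CPM in 51 cells of saline 1 and 144 CPM in 10 cells of saline 2. Conventional dendritic cells had 6.12, 0 and 1.47 CPM of Lag3, so the Lag3 of dendritic cells was mainly in the plasmacytoid class.

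**Figure D2:**
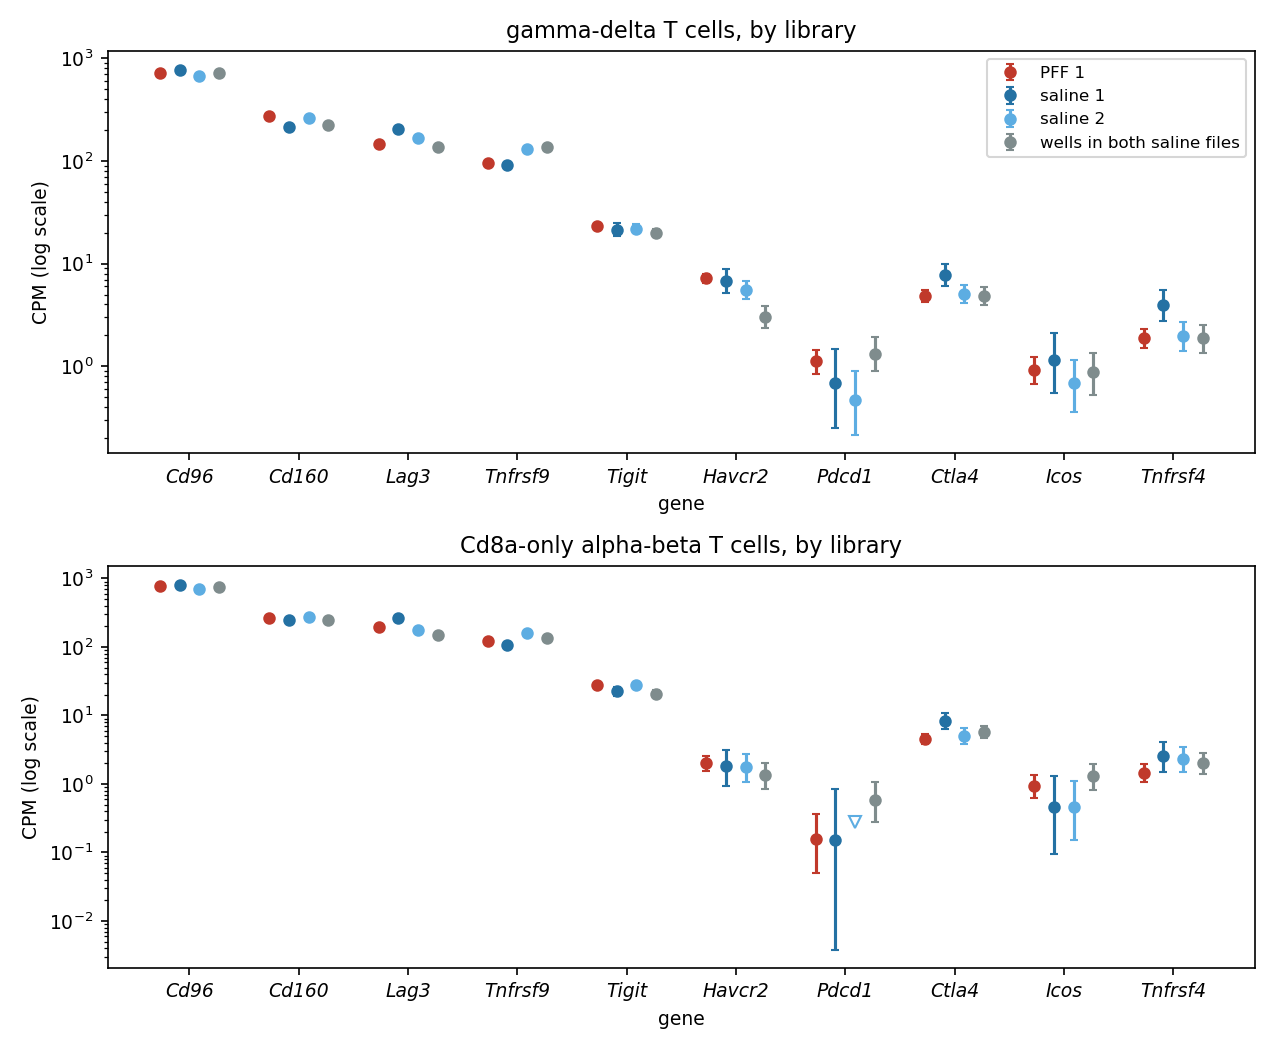
Level of the 10 genes (CPM, log axis) in gamma-delta T cells (top) and Cd8a-only alpha-beta T cells (bottom) by library; bars are exact Poisson 95% intervals and cover counting error only, and an open triangle is the value that 3 UMIs would give where none was found. Lag3 in gamma-delta T cells stands at 147 CPM in PFF 1 against 206 and 168 CPM in saline 1 and saline 2.

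Tigit, a second receptor for Pvr, was even across gamma-delta wells, at 23.0 CPM in PFF 1, 21.5 CPM in saline 1 and 22.0 CPM in saline 2. In regulatory T cells 10 UMIs gave 78.0 CPM, with an exact Poisson 95% interval of 37.4 to 144 CPM. The 10 UMIs were in 5 of 20 cells, and the interval covers counting error only. It lies above the level over all wells of every other class, the next being Cd8a-only at 25.6 CPM. In single libraries, conventional CD4 cells reached 60.2 CPM in saline 1, from 1 UMI.

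Havcr2, which encodes TIM-3, a receptor for galectin-9, was mostly a gene of dendritic cells in these samples. Conventional dendritic cells had 462 CPM in 71 cells of PFF 1, 378 CPM in 16 cells of saline 1 and 568 CPM in 59 cells of saline 2, and they held 67.5% of all Havcr2 UMIs of the 14 classes. The groups did not separate, PFF 1 lying between the saline libraries. Among T cells it was scarce, with 12.9 CPM in the CD8 alpha-beta cells of PFF 1, 7.98 CPM in saline 1 and 0 CPM in saline 2. In the Cd8a-only class it was 2.03 CPM in PFF 1, 1.81 CPM in saline 1 and 1.77 CPM in saline 2. Gamma-delta cells had 7.16, 6.83 and 5.54 CPM, above the Cd8a-only class in each of these libraries.

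Pdcd1, which encodes PD-1, the receptor for PD-L1 (Cd274) and PD-L2, was close to absent from the large intraepithelial type classes. It had 54, 6 and 9 UMIs in the 4873, 2550 and 1811 gamma-delta cells of PFF 1, saline 1 and saline 2, which were 1.11, 0.683 and 0.471 CPM. In conventional CD4 T cells, 55 in PFF 1, 5 in saline 1 and 8 in saline 2, it had 22, 2 and 0 UMIs. CD8 alpha-beta cells had 5.33 CPM in PFF 1, 3.99 CPM in saline 1 and 1.54 CPM in saline 2. The same class in the wells held by both saline files had 26.9 CPM, above all 3 libraries.

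Ctla4, which competes with CD28 for Cd80 and Cd86, was highest in regulatory T cells, with 683 CPM in 10 cells of PFF 1, 504 CPM in 2 cells of saline 1 and 961 CPM in 1 cell of saline 2. Conventional CD4 T cells had 149, 181 and 11.7 CPM. Every library thus had more Ctla4 in Foxp3 cells than in conventional CD4 cells, on very few saline cells. Gamma-delta T cells had 4.87 CPM in PFF 1, 7.74 CPM in saline 1 and 5.07 CPM in saline 2. Ctla4 overlaps the ribosomal protein pseudogene Rpl18-ps1 on the same strand.

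Tnfrsf9, which encodes 4-1BB and signals through TRAF adapters, was the costimulatory member of the intraepithelial type cells. In Cd8a-only cells it had 122 CPM in PFF 1, 108 CPM in saline 1 and 159 CPM in saline 2, and in gamma-delta T cells 96.4, 91.0 and 132 CPM. The library order was the same in both classes, with saline 2 highest, and the Cd8a-only level was above the gamma-delta level in each library. In CD8 alpha-beta cells the level was 103 CPM in PFF 1, from 233 UMIs, 27.9 CPM in saline 1, from 7 UMIs, and 105 CPM in saline 2, from 68 UMIs. Tnfrsf9 overlaps Camta1 on the other strand.

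Icos, the receptor for ICOS ligand, was high in Foxp3 and CD4 cells and scarce in intraepithelial type cells. Regulatory T cells had 569 CPM in PFF 1, 1387 CPM in saline 1 and 1922.5 CPM in saline 2, and conventional CD4 T cells 183, 723 and 70.4 CPM. CD8 alpha-beta T cells stood between these and the gamma-delta cells, with 13.8 CPM in PFF 1, 27.9 CPM in saline 1 and 6.16 CPM in saline 2. The gate gene Cd8b1 ran in the same order there, at 450, 690 and 191 CPM, and its part in the Icos level was not tested. The gamma-delta level was 0.929 CPM in PFF 1, 1.14 CPM in saline 1 and 0.680 CPM in saline 2. Icos overlaps Gm37039 on the same strand. Tnfrsf4, which encodes OX40, followed Icos in being highest in regulatory T cells, where PFF 1 held 23 UMIs, saline 1 held 4 and saline 2 held 1. These were 291, 504 and 160 CPM. In gamma-delta T cells it was at 1.88 CPM in PFF 1, 3.98 CPM in saline 1 and 1.99 CPM in saline 2.

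The classes were then compared within libraries on summed UMIs with edgeR's quasi-likelihood test, the library as a block and 2 residual degrees of freedom, p-values being adjusted (Benjamini-Hochberg) over all genes that passed the filter on low counts. The p-values rest on 3 libraries and on a spread that edgeR estimates with information from all tested genes. They do not measure the spread of each gene between the 3 libraries alone, and can be far smaller than 2 residual degrees of freedom would give. Cells of a library share their mice and their tube. Where a member did not pass the filter it has no test in that pair. A member could pass through the class where it is high, so the number called among those tested is a description and nothing is read from it. The adjusted p of a member that passed in this way is a description too.

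CD8 alpha-beta T cells were set against gamma-delta T cells, the same library on both sides. Of the 9 members tested, Icos was higher and Lag3 was lower, against 3.34% of all 11439 genes called in either direction, 2.12% higher and 1.22% lower. Icos differed by a log2 fold change of 3.92 ± 0.56 (SE, 3 libraries; edgeR adjusted p = 2.40e-07), and Lag3 by -0.48 ± 0.14 (edgeR adjusted p = 0.0343). In gamma-delta cells Icos had 0.929, 1.14 and 0.680 CPM in PFF 1, saline 1 and saline 2. Icos could therefore pass the filter through the CD8 alpha-beta class alone. Cd160, at 0.43 ± 0.14, did not pass (edgeR adjusted p = 0.0576). The Lag3 call was lost without saline 1, at an edgeR adjusted p of 0.621, without PFF 1, at 0.250, and with the shared wells as a further library, at 0.0717, and with DESeq2 its adjusted p was 0.434.

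The Cd8a-only and CD8 alpha-beta classes differed in the same members. Cd8a-only cells over CD8 alpha-beta cells had more Lag3, by 0.79 ± 0.16 (log2, SE; edgeR adjusted p = 0.00128), and less Icos, by -4.24 ± 0.57 (edgeR adjusted p = 1.76e-06), among 7 members tested. In this pair 4.04% of 11142 genes were called, 1.6% higher and 2.44% lower. Icos had 0.938, 0.454 and 0.466 CPM in the Cd8a-only cells of PFF 1, saline 1 and saline 2. Here too it could pass the filter through the CD8 alpha-beta class alone. Lag3 was 198 CPM in Cd8a-only cells and 109 CPM in CD8 alpha-beta cells of PFF 1, 261 and 87.8 CPM in saline 1, and 177 and 146 CPM in saline 2. Tnfrsf9 was 0.56 ± 0.17 higher without passing (edgeR adjusted p = 0.0596). The Lag3 call was lost without saline 1 (edgeR adjusted p = 0.103) and without PFF 1 (edgeR adjusted p = 0.288).

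A comparison of Cd8a-only with gamma-delta T cells, added after the values had been seen, called 4 of 9 members, against 6.58% of 13064 genes, 3.62% higher and 2.95% lower. Lag3 was higher in Cd8a-only cells by 0.30 ± 0.054 (edgeR adjusted p = 0.00164), Tigit by 0.28 ± 0.067 (edgeR adjusted p = 0.0172) and Tnfrsf9 by 0.31 ± 0.040 (edgeR adjusted p = 9.74e-05). Havcr2 was lower by -1.78 ± 0.16 on the log2 scale (edgeR adjusted p = 2.08e-06). Havcr2 and Tnfrsf9 stayed past the threshold under every alternative run, whereas DESeq2 gave adjusted p = 0.342 for Lag3 and 0.768 for Tigit, and Tigit also missed the threshold without saline 2 (0.0742) and without PFF 1 (0.254). Cd96 and Cd160, the most abundant members of these cells, differed by 0.076 ± 0.033 and 0.064 ± 0.044 and were not called.

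**Figure D3:**
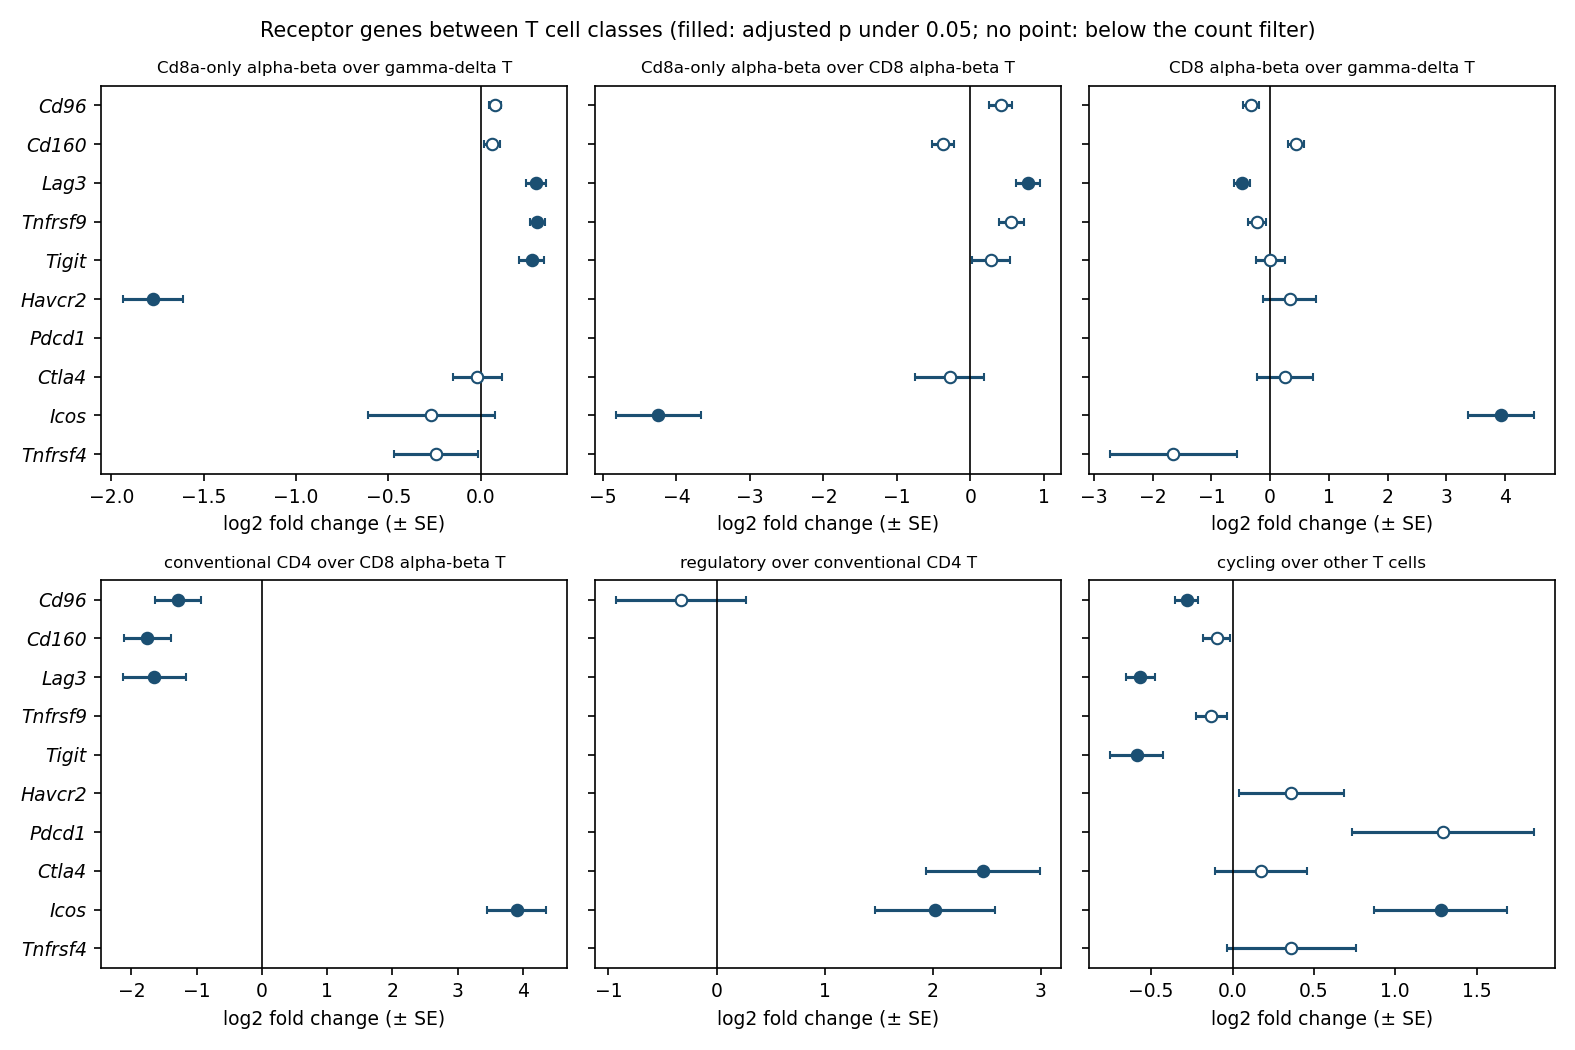
Log2 fold change of each tested member between 6 pairs of T cell classes, with the library as a block (edgeR, 3 libraries, bars are SE); filled points have an adjusted p under 0.05. Icos differs by 3.92 between CD8 alpha-beta and gamma-delta T cells, while Havcr2 is the called member that is lower in Cd8a-only than in gamma-delta T cells, at -1.78.

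Conventional CD4 T cells, 55, 5 and 8 in PFF 1, saline 1 and saline 2, were compared with CD8 alpha-beta T cells, of which there were 237, 84 and 54. Only 4 members passed the filter, and Lag3, with 19, 1 and 0 UMIs in the conventional CD4 cells and 245, 22 and 95 UMIs in the CD8 alpha-beta cells, could pass through the CD8 alpha-beta class alone. Icos, with 13.8, 27.9 and 6.16 CPM in the CD8 alpha-beta cells, could pass through the conventional CD4 class alone. Of all 5587 genes tested 7.77% were called, 2.97% higher and 4.8% lower. Icos was higher by 3.90 ± 0.46 (edgeR adjusted p = 3.17e-15). Cd160 was lower by -1.76 ± 0.36 (edgeR adjusted p = 3.92e-05), Lag3 by -1.65 ± 0.48 (edgeR adjusted p = 0.0107) and Cd96 by -1.29 ± 0.35 (edgeR adjusted p = 0.00446). The other 6 members fell below the filter in this pair. The Lag3 call was lost without saline 2 (edgeR adjusted p = 0.484), without PFF 1 (0.0931), with DESeq2 (0.348) and with at least 2 Cd8b1 UMIs for the CD8 cells (0.328), and the Cd96 call without saline 2 (0.146) and without PFF 1 (0.557).

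Regulatory over conventional CD4 T cells rested on 10, 2 and 1 Foxp3 cells in PFF 1, saline 1 and saline 2. Of the 3 members tested, Ctla4 was higher by 2.46 ± 0.53 (edgeR adjusted p = 0.000454) and Icos by 2.02 ± 0.56 (edgeR adjusted p = 0.0186), where 2.24% of 849 genes were called, 1.3% higher and 0.942% lower. Cd96 differed by -0.33 ± 0.60 and was not called. Ctla4 could pass the filter through the Foxp3 class alone, and Icos could not pass it without that class, so their tests are a description. With DESeq2 both calls were lost, at adjusted p = 1.00, as they were with no filter on low counts, at edgeR adjusted p = 0.981, and the Icos call was lost without saline 2 (edgeR adjusted p = 0.185) and without PFF 1 (0.791).

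Cycling T cells, 357 in PFF 1, 84 in saline 1 and 112 in saline 2, were compared with all other T cells. Of all 12690 genes 28.6% were called, 16.5% higher and 12.1% lower, and of the 10 members 4 were. Lag3 was lower in cycling cells by -0.57 ± 0.092 (edgeR adjusted p = 1.10e-05), Tigit by -0.59 ± 0.16 (edgeR adjusted p = 0.00603) and Cd96 by -0.28 ± 0.072 (edgeR adjusted p = 0.00293). Icos was higher by 1.28 ± 0.41 (edgeR adjusted p = 0.0174), and this rested on PFF 1: without that library the log2 fold change was -0.53 (edgeR adjusted p = 0.837). The 71 Icos UMIs of the cycling cells of PFF 1 were in 9 cells, 25 of them in 1 cell. Without PFF 1 the calls of Tigit (edgeR adjusted p = 0.336) and Cd96 (0.212) were lost too, and DESeq2 gave adjusted p = 0.0933 for Tigit and 0.732 for Icos.

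PFF was then compared with saline within each class, with 1 PFF and 2 saline libraries and 1 residual degree of freedom, PFF 1 being assumed to vary like the saline libraries. The tested question was whether the receptor genes of duodenal T cells differed at day 30 after fibrils. None of the members was called by edgeR in any of 5 classes or in all T cells together, and DESeq2 also called 0. The share of all genes called was 0.0207% in gamma-delta T cells, 0.638% in Cd8a-only cells, 0.0703% in CD8 alpha-beta cells, 0.0954% in cycling cells, 0.123% in other T cells and 0.0127% in all T cells. At an unadjusted p under 0.05 there were 0 members in gamma-delta, Cd8a-only, CD8 alpha-beta and all T cells, 1 in cycling cells and 2 in other T cells. The shares above are for the adjusted p and are no baseline for these counts, so nothing is read from them. Batch is tied to saline 2 and could not be fitted as a term, so the values within batch 1, PFF 1 against saline 1, stand beside the pooled ones below. Values against a single saline library have no test. They were computed with a prior count of 2 added to the counts, which draws folds from low counts toward 0. The pooled values come from the edgeR test fit and were estimated differently.

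In gamma-delta T cells Lag3 was -0.32 ± 0.19 on the log2 scale in PFF over saline (edgeR adjusted p = 1.00), -0.42 within batch 1 and -0.22 against saline 2. The other abundant members were nearer to 0: Cd160 at 0.20 ± 0.20, Cd96 at 0.026 ± 0.20, Tnfrsf9 at -0.21 ± 0.22 and Tigit at 0.10 ± 0.22. Within batch 1 they were 0.42, -0.028, 0.14 and 0.16, so the sign of Cd96 and of Tnfrsf9 turned with the saline library used. The scarce members had wide errors, with Havcr2 at 0.24 ± 0.32, Ctla4 at -0.35 ± 0.36, Tnfrsf4 at -0.61 ± 0.57, Pdcd1 at 1.00 ± 0.90 and Icos at 0.093 ± 0.88. In the Cd8a-only class Lag3 was at -0.12 ± 0.19, Cd160 at 0.014 ± 0.19, Cd96 at 0.050 ± 0.19, Tnfrsf9 at -0.12 ± 0.19 and Tigit at 0.15 ± 0.21, and within batch 1 at -0.34, 0.15, -0.024, 0.23 and 0.37. The scarce members of this class had Havcr2 at 0.20 ± 0.79, Ctla4 at -0.51 ± 0.41, Icos at 1.03 ± 1.29 and Tnfrsf4 at -0.71 ± 0.80, and Pdcd1 was below the filter. With errors of this size a missed threshold does not show that PFF and saline were alike.

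In CD8 alpha-beta T cells Cd96 was at 0.15 ± 0.38, Cd160 at 0.32 ± 0.37, Lag3 at -0.13 ± 0.37 and Icos at -0.0029 ± 1.62 on the log2 scale, all with edgeR adjusted p = 1.00. Within batch 1 these were 0.52, -0.042, 0.35 and -0.89. Each of these signs changed with the saline library used. In all T cells together Lag3 was at -0.24 ± 0.19, Cd160 at 0.13 ± 0.18, Cd96 at 0.019 ± 0.18 and Icos at 0.98 ± 0.48, none of them called. Cycling T cells had Lag3 at 0.028 ± 0.29, Cd160 at 0.21 ± 0.27 and Cd96 at -0.035 ± 0.28, and other T cells had -0.18 ± 0.34, -0.27 ± 0.35 and -0.071 ± 0.37.

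**Figure D4:**
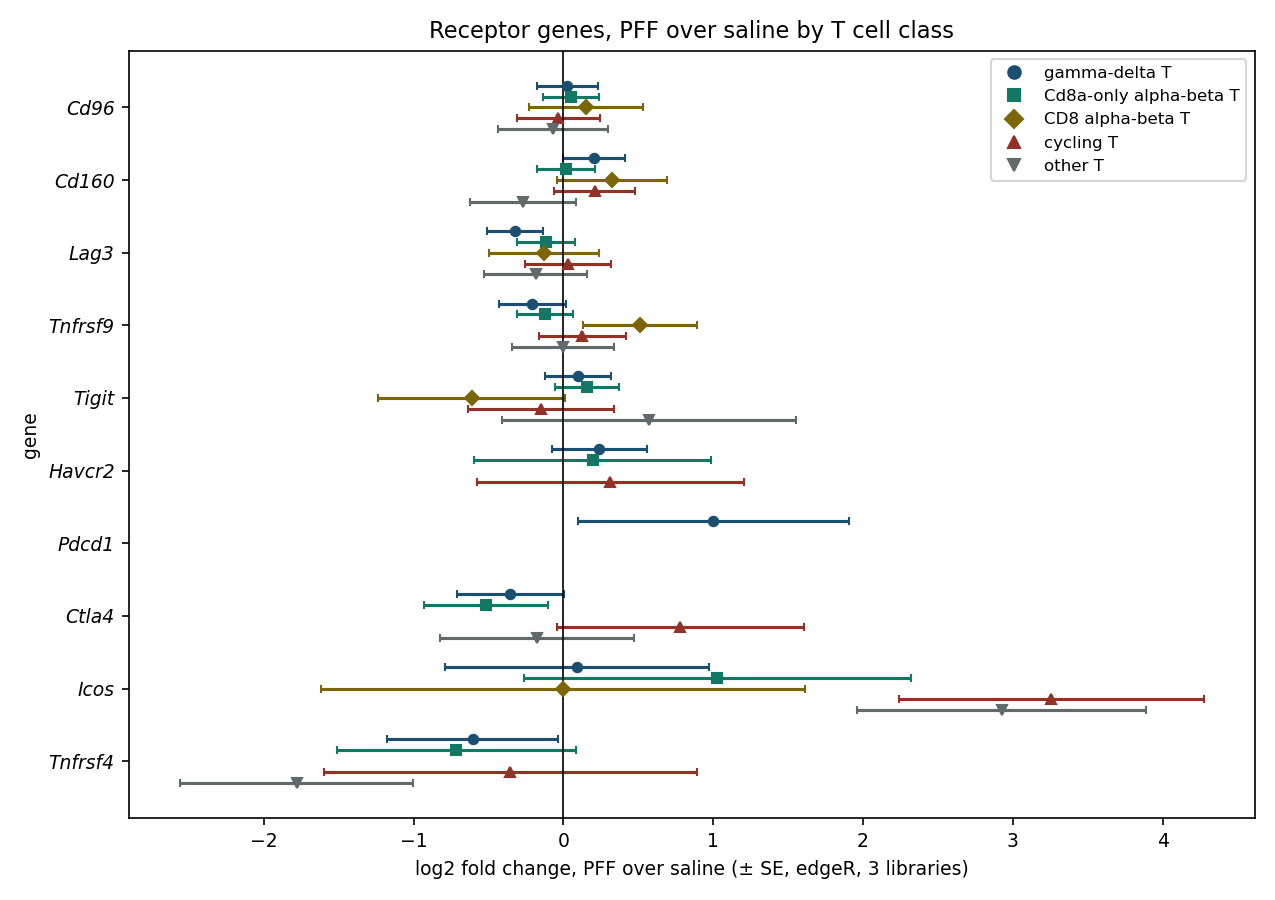
Log2 fold change of PFF over saline for each tested member in 5 T cell classes (edgeR, 1 PFF and 2 saline libraries, bars are SE). No point passes an adjusted p of 0.05; the points farthest from 0 are Icos in cycling T cells at 3.26 and in other T cells at 2.93.

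Icos stood farthest from 0. Cycling T cells had 11.4 CPM in PFF 1, from 71 UMIs, 0 UMIs in saline 1 and 1.54 CPM, from 3 UMIs, in saline 2. The log2 fold change was 3.26 ± 1.02, with an unadjusted edgeR p of 0.00139 and an adjusted p of 0.486. The saline side of this fold rested on the 3 UMIs of saline 2, as saline 1 had 0. Other T cells had 23.8 CPM in PFF 1, from 51 UMIs in 15 cells, 3.83 CPM in saline 1 and 2.53 CPM in saline 2, each from 2 UMIs. The log2 fold change there was 2.93 ± 0.96, with an unadjusted edgeR p of 0.00508 and an adjusted p of 0.845. The 2 saline libraries were below PFF 1 in both classes. The wells held by both saline files, however, had together 25.2 CPM in cycling and 36.8 CPM in other T cells, above PFF 1. From the smallest well to the largest, cycling cells had 31.9, 7.02 and 25.7 CPM, from 5, 1 and 85 UMIs. In other T cells all 75 UMIs were in the largest well, and the smaller wells had 0. With those wells as a further saline library the log2 fold change was -0.072 in cycling and 0.40 in other T cells. Sh2d1a, the adapter SAP, was the one gene of the related lists called in PFF over saline, with 50.8 CPM in the other T cells of PFF 1, 11.5 CPM in saline 1 and 0 UMIs in saline 2 (edgeR adjusted p = 0.0299). Both genes were also high in conventional CD4 cells, and part of the other T cells had Cd4, at 74.5 CPM in PFF 1, 23.0 CPM in saline 1 and 20.2 CPM in saline 2; the share of the difference that goes with the makeup of this class was not tested. Tnfrsf4 in other T cells was the remaining member with an unadjusted p under 0.05. It had 6.99 CPM in PFF 1, 9.57 CPM in saline 1 and 36.6 CPM in saline 2, where 19 of 29 UMIs were in 1 cell. Its log2 fold change was -1.78 ± 0.78, with an unadjusted edgeR p of 0.0296 and an adjusted p of 1.00, and it was -0.33 within batch 1.

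**Figure D5:**
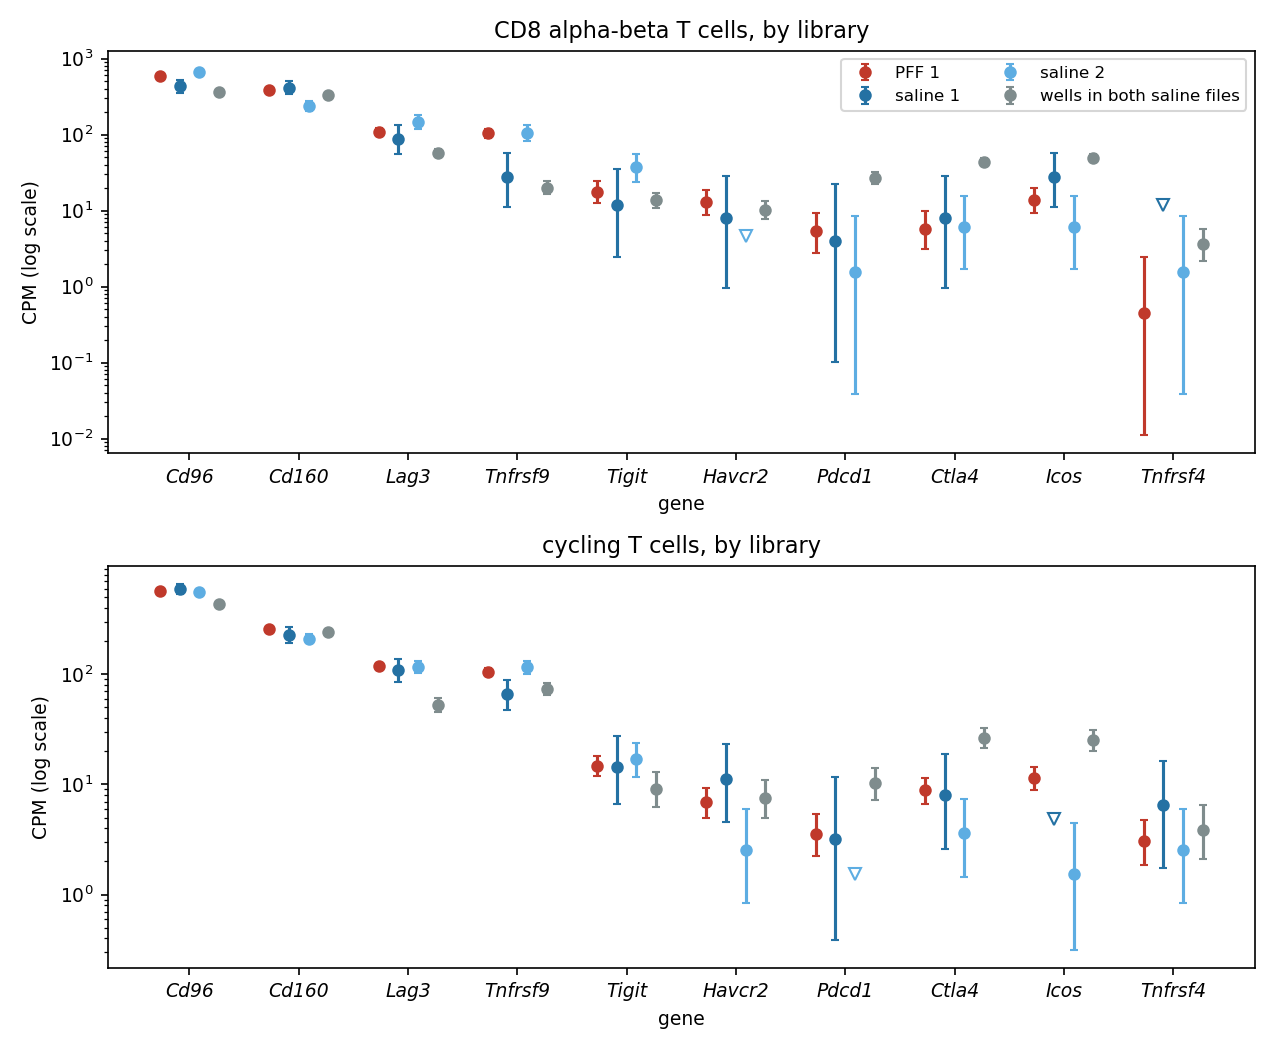
Level of the 10 genes (CPM, log axis) in CD8 alpha-beta T cells and cycling T cells by library, with exact Poisson 95% intervals for counting error; an open triangle is the value that 3 UMIs would give where none was found. In cycling T cells Icos stands at 11.4 CPM in PFF 1, at 0 UMIs in saline 1 and at 1.54 CPM in saline 2, and at 25.2 CPM in the wells held by both saline files.

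Members were also counted cell by cell, each cell thinned to 1500 UMIs. A gamma-delta cell of PFF 1 showed a mean of 1.28 of the 10 members, one of saline 1 a mean of 1.28 and one of saline 2 a mean of 1.26, and no member was seen in 16.7%, 16.6% and 19.4% of the cells. Cd8a-only cells showed 1.36, 1.43 and 1.35. A Cd160 UMI was seen in gamma-delta cells with a Lag3 UMI and in those without one in 25.5% against 29.9% of PFF 1, 18.4% against 23.2% of saline 1 and 23.1% against 28.8% of saline 2. In the wells held by both saline files it was 17.95% against 16.2%, 22.0% against 21.1% and 20.7% against 25.6%. In the Cd8a-only class it was 25.5% against 28.2% in PFF 1, 22.2% against 27.6% in saline 1 and 34.8% against 30.2% in saline 2, so the direction was not the same in every library. Cells of a library are not replicates, so these shares have no test.

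The likeness of level profiles was taken as Pearson's r of log2(CPM + 1) over the 14 classes, each the mean over wells, among 10373 genes. The classes share libraries and differ in depth, so r is a description. The nearest genes to Cd96 were Cd3e (r = 0.993) and Cd3g (0.991), which encode CD3 chains of the T cell receptor complex. The chemokine receptor Cxcr6 (0.978) followed, and Cd3e and Cd3g were used to gate T cells. For Lag3 they were Gm19705 (0.949), Pigb (0.935) and Ikzf2 (0.927), which encodes Helios. For Ctla4 they were Ube2b (0.886), Gm36043 (0.853) and the interleukin-2 receptor gene Il2ra (0.851), and for Icos they were Chst2 (0.946), Cd6 (0.932) and Sh2d1a (0.921). Tnfrsf4 was nearest to Itgb8 (0.980), Tnfsf11 (0.965) and Ttn (0.963), Tigit to Ncmap (0.978), Gm12474 (0.952) and Adora2a (0.951), and Tnfrsf9 to Gm29114 (0.973), Pvrig (0.973) and F2r (0.973). Cd160 was nearest to Gm20069 (0.978), Spink13 (0.977) and AI847159 (0.974), Havcr2 to Itga5 (0.936), Ctnnd2 (0.934) and Aph1c (0.929), and Pdcd1 to Gm2682 (0.976), Gm39323 (0.973) and Ubash3a (0.970). Among the members themselves the closest pairs were Tigit with Tnfrsf9 (0.917), Cd96 with Tnfrsf9 (0.905) and Icos with Tnfrsf4 (0.873), and Havcr2 had its lowest r with Ctla4 (-0.281).

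Related genes were taken from 5 lists, ligands of the receptors, other inhibitory receptors, other costimulatory receptors, signalling partners and transcription factors, each with 10 to 15 genes. In PFF over saline in gamma-delta T cells 0 of 13, 10, 9, 10 and 14 tested genes were called by edgeR, against 0.0207% of all genes, with medians of -0.13, 0.13, 0.36, 0.13 and 0.17 on the log2 scale beside -0.013 over all genes. At an unadjusted p under 0.05 there were 0, 0, 2, 0 and 2 genes. The share of all genes at that threshold is not given here, so nothing is read from these counts. Of the named ligands, Lgals9, which encodes galectin-9, had 104 CPM in the gamma-delta cells of PFF 1, 111 CPM in saline 1 and 108 CPM in saline 2, and Cd274 had 42.1, 46.3 and 39.0 CPM. Lgals3 had 151, 128 and 205 CPM and Hmgb1 465, 542 and 578 CPM. None of them was called there.

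In CD8 alpha-beta over gamma-delta T cells 0 of 11 tested ligands were higher and 1 lower, 3 of 10 other inhibitory receptors were higher and 2 lower, and 4 of 8 other costimulatory receptors were higher and 0 lower, with medians of -0.015, -0.11 and 0.82 beside -0.012 over all genes. Of all 11439 genes tested in this pair, 2.12% were called higher and 1.22% lower. A list gene could pass the filter through the class where it is high, so nothing is read from the list counts of this pair. The inhibitory receptor Cd5, which dampens T cell receptor signals, was at 57.7 CPM in CD8 alpha-beta cells and 0.661 CPM in gamma-delta cells of PFF 1, a log2 difference over the 3 libraries of 6.85 ± 0.51 (edgeR adjusted p = 2.65e-18). Cd200r1 and Cd244a, inhibitory receptors also abundant in the intraepithelial type cells, were lower by -0.50 ± 0.14 (edgeR adjusted p = 0.0287) and -0.51 ± 0.14 (edgeR adjusted p = 0.0153), as was Lgals3 by -0.61 ± 0.14 (edgeR adjusted p = 0.00206). Cd226, which shares the ligand Pvr with Cd96 and Tigit but is activating, was higher by 1.10 ± 0.13 (edgeR adjusted p = 6.39e-10), and Cd2 and Slamf6 by 4.71 ± 0.35 and 3.81 ± 0.44. Of the signalling partners 1 of 10 was higher and 0 lower, this being Sh2d1a at 3.38 ± 0.38, while Inpp5d, Traf3 and Pik3r1 were not called. Of 12 transcription factors 3 were higher and 1 lower: Tcf7 was at 1.73 ± 0.18 (edgeR adjusted p = 4.08e-12), Ikzf2 at -0.56 ± 0.15 (edgeR adjusted p = 0.0204), and Tox and Maf were not called.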

How the data were processed

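Droplet 3′ libraries were deposited as raw UMI counts per gene and cell, made with Cell Ranger 7.0.0 per the file headers and on mm10 per the submitters' processing notes. A cell had to have 500 or more UMIs, 200 or more genes and no more than 15% mitochondrial UMIs. Scrublet's own threshold marked under 0.5% of cells in most wells, so the top scores were removed at 0.8% per 1000 passing cells. Marker gates on raw UMIs gave the classes, their thresholds were set after the data had been seen, and cells passing 2 lineage gates were left out. The members and gene lists were chosen with earlier results of these data known. Every member was described, and list genes were named by their highest CPM in a T cell class, at most 4 a list with at least 20 CPM.

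For each class the UMIs of a library were added up, and these sums went into the quasi-likelihood test of edgeR 4.0.16 (R 4.3.3) or, as an alternative, DESeq2 1.42.0, with Benjamini-Hochberg adjustment over all genes passing the filter and a threshold of 0.05. PFF over saline was run in classes with at least 50 cells in each library. Intervals are exact Poisson 95% intervals, and they and the 3-count limits cover counting error only. Cell steps used scanpy 1.11.5 and Python 3.11.15. The test scripts were tested on simulated data. Gene positions were taken from GENCODE M21 and promoters from RefSeq on GRCm38.p6. Alternatives changed the normalization, filters, doublets, gates and the use of the shared saline wells, and left out each library. In PFF over saline only the saline libraries were left out.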

Additional observations from a re-analysis of the deposited data

Results flagged for a closer look

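In the wells held by both saline files, 6 member levels stood above both saline libraries by more than counting error. These wells are outside the main tests and enter only alternatives to them. In CD8 alpha-beta T cells Pdcd1 had 26.9 CPM in the shared wells (95% interval 22.6 to 31.7), with 3.99 CPM in saline 1 and 1.54 CPM in saline 2. In the same class Ctla4 had 43.8 CPM in the shared wells (38.3 to 49.8), with 7.98 CPM in saline 1 and 6.16 CPM in saline 2. In cycling T cells Ctla4 had 26.6 CPM in the shared wells (21.6 to 32.5), with 8.05 CPM in saline 1 and 3.59 CPM in saline 2. Icos in cycling T cells had 25.2 CPM in the shared wells (20.3 to 31.0), with 0 and 1.54 CPM in saline 1 and saline 2. Icos in other T cells had 36.8 CPM in the shared wells (28.9 to 46.1), with 3.83 and 2.53 CPM in saline 1 and saline 2. All 75 Icos UMIs of other T cells in the shared wells were in the largest well. Havcr2 in conventional dendritic cells had 684 CPM in the shared wells (634 to 737), with 378 and 568 CPM in saline 1 and saline 2. The labels do not say which mice these wells came from.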

How the results depend on the processing

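No paired analysis was possible because PFF and saline share only replicate number 1, and the class pairs already have the library as a block. Of 52 PFF over saline values of members, 35 changed sign under at least 1 alternative, and the cause was not tested. With doublets kept, Icos was -0.20 in gamma-delta and 0.087 in CD8 alpha-beta T cells. With no filter on low counts, Icos was 0.088 in CD8 alpha-beta cells and Cd96 0.0085 in cycling cells. With repeated barcodes left out, Lag3 was -0.015 in cycling cells. With the shared wells as a further library, Lag3 was 0.034 in Cd8a-only, 0.18 in CD8 alpha-beta and 0.038 in other T cells, Cd96 0.079 and Icos -0.072 in cycling cells, and Icos -0.41 in all T cells. With each well as a library, Lag3 was 0.33 in CD8 alpha-beta and 0.026 in other T cells, Cd96 0.30 and Icos -0.19 in cycling cells, and Icos -0.59 in all T cells.

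With the saline files as deposited, which puts the same cells in both saline libraries, Lag3 was 0.21 in Cd8a-only, 0.68 in CD8 alpha-beta, 0.33 in other and 0.15 in all T cells, Icos -0.11 in Cd8a-only, -0.79 in cycling, -0.25 in other and -1.06 in all T cells, and Cd96 0.23 in cycling and 0.052 in other T cells. Members called, of those tested, were then 2 of 10 (4.22% of all genes) in gamma-delta, 1 of 10 (17.3% of all genes) in Cd8a-only, 7 of 10 (29.4% of all genes) in CD8 alpha-beta, 5 of 10 (23.1% of all genes) in cycling, 2 of 10 (6.91% of all genes) in other and 3 of 10 (5.55% of all genes) in all T cells, the share in brackets being that called in the same fit.

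PFF 1, the only PFF library, was kept in every PFF over saline fit, so its own variation is not covered. Leaving out each saline library in turn gave ranges that crossed 0. In gamma-delta cells these were -0.22 to 0.39 for Icos, -0.48 to 0.14 for Tnfrsf9 and -0.028 to 0.078 for Cd96. In Cd8a-only cells they were -0.11 to 0.15 for Cd160, -0.34 to 0.14 for Lag3, -0.021 to 0.37 for Tigit, -0.40 to 0.23 for Tnfrsf9 and -0.024 to 0.13 for Cd96. In CD8 alpha-beta cells they were -0.89 to 1.01 for Icos, -0.14 to 0.52 for Cd96, -0.042 to 0.71 for Cd160 and -0.42 to 0.35 for Lag3. They were -0.033 to 0.11 for Lag3 in cycling cells, -0.25 to 0.13 for Cd96 in other T cells and -0.043 to 0.081 for Cd96 in all T cells.

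Of 42 class pair values, 8 changed sign, and 11 of 18 called ones lost their call under at least 1 alternative. In CD8 alpha-beta over gamma-delta cells Tigit was -0.0060 with DESeq2, -0.029 with no filter, -0.14 with the shared wells as a library, -0.15 with each well as a library, -0.28 with at least 2 Cd8b1 UMIs and -0.40 to 0.35 leaving out a library; Havcr2 was -0.13 with DESeq2 and -1.36 to 0.80 leaving out a library, and Tnfrsf4 was 0.0067 with the shared wells. In cycling cells Cd160 was 0.037 with each well as a library and -0.15 to 0.0075 leaving out a library, Ctla4 -0.40 to 0.41 and Icos -0.53 to 1.54. Tigit in Cd8a-only over CD8 alpha-beta cells was -0.064 to 0.66. Ctla4 in Cd8a-only over gamma-delta cells was 0.0032 with DESeq2, 0.052 with the shared wells, 0.057 with each well as a library and -0.063 to 0.053 leaving out a library.

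Members called in regulatory over conventional CD4 cells were 0 of 9 (0.0317% of all genes) with DESeq2, 0 of 9 (0.0397% of all genes) with no filter, 1 of 1 (2.77% of all genes) with each well as a library and 0 to 4 leaving out a library (1.64 to 3.56% of all genes). They were 8 of 10 (3.08% of all genes) with no filter and 2 to 6 leaving out a library (4.17 to 8.69% of all genes) in conventional CD4 over CD8 alpha-beta cells. In CD8 alpha-beta over gamma-delta cells they were 1 of 10 (0.829% of all genes) with DESeq2, 5 of 8 (7.63% of all genes) with each well as a library and 1 to 4 leaving out a library (1.06 to 5.52% of all genes). In Cd8a-only over CD8 alpha-beta cells they were 5 of 10 (2.59% of all genes) with no filter, 6 of 7 (12.2% of all genes) with each well as a library and 1 to 6 leaving out a library (0.674 to 7.24% of all genes). In cycling cells they were 2 of 10 (10.3% of all genes) with DESeq2, 7 of 10 (36.8% of all genes) with each well as a library and 1 to 5 leaving out a library (13.4 to 26.3% of all genes), and in Cd8a-only over gamma-delta cells 2 of 10 (1.46% of all genes) with DESeq2. The number tested changed with the setting, so these counts follow the filter too. Thinning to 1500 UMIs kept 65 of 70 levels within their spread, and moved Tigit to 20.1 CPM in gamma-delta, 133 CPM in regulatory and 6.10 CPM in cycling T cells, Cd96 to 167 CPM in regulatory T cells and Tnfrsf9 to 8.77 CPM in conventional CD4 T cells. Few cells limit every regulatory and conventional CD4 T cell value.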

Other observations

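Plasma cells, gated on Jchain and other plasma cell genes, held Ctla4 UMIs. PFF 1 had 28 UMIs in 6 of 16 cells, or 70.5 CPM, saline 1 had 0 UMIs in 3 cells, and saline 2 had 26 UMIs in 5 of 9 cells, or 102 CPM. The wells held by both saline files had 82 UMIs in 25 of 48 plasma cells. Up to 15 UMIs in PFF 1 and up to 20 UMIs in saline 2 came from a single cell. This was noticed after the values had been seen and was not tested.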
